A study of Mus musculus with 18 samples.

Results

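The genes described here are 10 genes of the unfolded protein response and the integrated stress response: the sensors Ern1, Eif2ak3 and Atf6, the transcription factors Xbp1, Atf4 and Ddit3, and the targets and feedback genes Asns, Trib3, Herpud1 and Ppp1r15a. They were chosen by gene symbol. The 10 symbols matched 11 gene identifiers, because Ddit3 has 2, among the 28252 genes with a TPM value and the 53715 genes with a count. TPM is the share of transcripts that a gene holds once its length is allowed for. It is a level per length of transcript and is the scale of every level below unless counts are named.

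The data are RNA sequencing counts from bulk oocyte material of the mouse, in 6 groups of 3 libraries. The groups were oocytes of primordial follicles, oocytes of primary follicles and MII oocytes, that is, mature oocytes arrested in metaphase of the second meiotic division, each from sham and from NTY. All were collected in vivo from mice of the strain label C57Bl/6j x CBA/J, with no age given, and the labels do not say what NTY stands for. Follicle oocytes were cut out by laser microdissection, with RNA of a stage pooled at extraction, then amplified and captured with the TruSeq RNA Access kit, whereas MII oocytes were prepared by Smart-seq II. Stage and library method therefore cannot be told apart in any comparison of MII oocytes with microdissected follicles, and such comparisons are levels with no test.

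The unfolded protein response is started by sensors in the membrane of the endoplasmic reticulum when unfolded proteins build up in its lumen. IRE1, the product of Ern1, splices Xbp1 mRNA so that it encodes an active transcription factor. PERK, the product of Eif2ak3, phosphorylates the translation initiation factor eIF2α, and ATF6 is cut in the Golgi to free a transcription factor. Phosphorylation of eIF2α is also the shared step of the integrated stress response, in which other kinases respond to amino acid lack, haem lack or viral RNA. General translation falls, translation of ATF4 rises, and ATF4 drives genes of amino acid supply, the factor CHOP from Ddit3, and the phosphatase subunit GADD34 from Ppp1r15a, which reverses the phosphorylation. Growing oocytes make and secrete large amounts of zona pellucida protein, so the endoplasmic reticulum is active in them, and mature oocytes are transcriptionally silent, so their mRNA is a stored pool. These gene counts measure mRNA level, and they show neither Xbp1 splicing nor ATF6 cutting, phosphorylation of eIF2α or translation.

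Total counts ran from 15149564 to 29205503 in the 12 microdissected libraries and from 8652089 to 9978830 in the 6 MII libraries. Genes with at least 10 counts numbered 4244 to 10241 in the former and 10711 to 13191 in the latter, so the deeper libraries held fewer genes. The summed level of 12 oocyte markers was 7397 to 10614 CPM (counts scaled to the library total) in MII libraries and 1.7 to 1350 CPM in microdissected libraries. That of 13 granulosa cell markers was 83.5 to 159 CPM against 778 to 4884 CPM, and 4 of the 13 (Foxl2, Amhr2, Wt1 and Fst) were at 0 in every MII library. For 6 stroma markers it was 0 to 2.91 CPM against 1376 to 17910 CPM, and all 6 were at 0 in MII NTY. The sum of the 3 endothelium markers was higher in MII libraries, at 100 to 148 CPM against 0 to 59.6 CPM, although Cdh5 was at 0 in every MII library. Markers of leukocytes, red cells and theca cells summed to at most 49.9 CPM in any library. In every microdissected library the stroma sum was above the oocyte sum. So was the granulosa sum, except in primordial sham replicate 2 (830 against 1350 CPM). Sums over different genes do not rank the amounts of RNA from each cell type. Primordial NTY replicate 3 stood apart with an oocyte sum of 1.7 CPM. In such bulk material, fewer cells of a type and less RNA per cell cannot be told apart. The part of these markers in the results below was not tested.

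The number of the 10 genes with at least 10 counts was 5 to 9 per microdissected library and 5 to 8 per MII library. Primary sham replicates 1 and 3 held 9 each, the most of any library. Primordial sham replicate 1 and primordial NTY replicate 3 held 5 each, with the other 5 at 0, and these were also the microdissected libraries with the fewest genes over 10 counts, 5025 and 4244. Atf4 and Ern1 reached 10 counts in all 18 libraries, as did 7.15% of the 14540 genes that passed the filter on low counts in at least one of the fits.

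**Figure D1:**
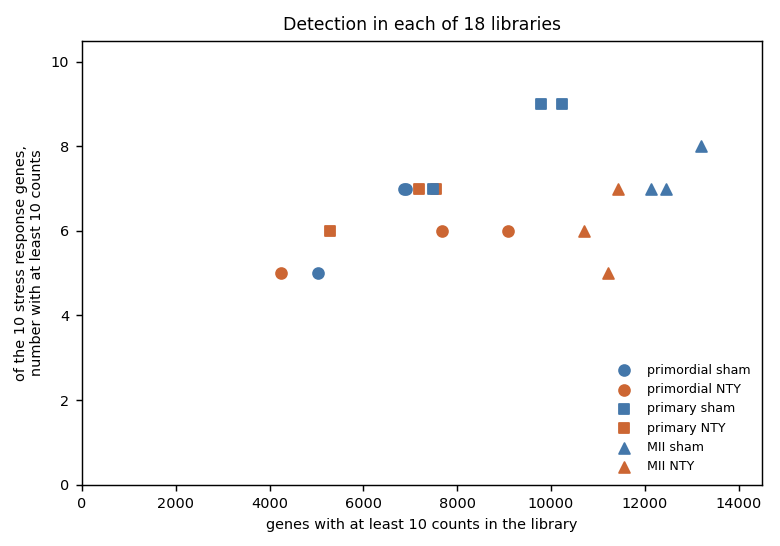
Each point is 1 of 18 libraries. The horizontal axis is the number of genes with at least 10 counts and the vertical axis is how many of the 10 stress response genes reached 10 counts. MII libraries lie to the right, between 10711 and 13191 genes, but hold 5 to 8 of the 10, within the 5 to 9 of the microdissected libraries.

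Ern1 (ENSMUSG00000020715, chr11:106394650-106487852, minus strand, GRCm38) encodes IRE1, the kinase and endoribonuclease of the most conserved arm of the unfolded protein response. Its level was 75.5, 151 and 25.0 TPM in the primordial sham libraries and 42.2, 56.4 and 50.2 TPM in primordial NTY. In primary follicles it was 69.2, 75.2 and 49.4 TPM in sham and 68.9, 21.5 and 98.0 TPM in NTY. MII oocytes held 239, 301 and 333 TPM in sham and 274, 340 and 403 TPM in NTY. All 6 MII libraries thus lay above all 12 microdissected ones, the lowest MII library 1.59 times the highest microdissected library, and the ratio of medians was 5.06. Ern1 was the most even of the 10 genes over replicates in 3 of the 4 microdissected groups, with a relative SD of 14.3% (n = 3) in primordial NTY. Sham and NTY overlapped at every stage, and in MII oocytes the fitted log2 fold change of NTY over sham was 0.27 (SE 0.27, edgeR unadjusted p = 0.35).

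Xbp1 (ENSMUSG00000020484, chr11:5520659-5525893, plus strand), whose mRNA IRE1 splices, had the reverse distribution. Primordial follicles held 1.04, 5.86 and 1.87 TPM in sham and 6.98, 1.61 and 0.429 TPM in NTY. Primary follicles held 1.92, 0.448 and 6.24 TPM in sham and 5.42, 1.12 and 3.92 TPM in NTY. The gene was low in these libraries but passed 10 counts in all 12. In MII oocytes it was at 0 in 5 of 6 libraries, where a limit of 3 counts allows up to 0.219 to 0.283 TPM, and at 2.09 TPM (23 counts) in NTY replicate 3. Such limits cover counting error only. The MII NTY library at 2.09 TPM lay inside the microdissected range, so the library kinds overlapped. Xbp1 did not pass the filter on low counts in MII oocytes and was not tested there.

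Atf6 (ENSMUSG00000026663, chr1:170704674-170867771, minus strand) encodes the sensor that becomes a transcription factor when cut. It was uneven in primordial follicles, with 0, 8.79 and 27.4 TPM in sham and 0.598, 0.122 and 0 TPM in NTY. Primary sham libraries were close together at 15.6, 11.2 and 11.3 TPM, while primary NTY held 12, 0.212 and 31.8 TPM. The 6 MII libraries held 23.2, 36.5 and 22.2 TPM in sham and 20.8, 26.7 and 42.8 TPM in NTY. All 3 primordial NTY libraries lay below 2 of the 3 primordial sham libraries, yet the sham library at 0 made the groups overlap. The log2 fold change there was -5.73 (SE 3.41, edgeR adjusted p = 0.556). MII levels overlapped the microdissected range through primary NTY replicate 3 and primordial sham replicate 3, and the ratio of medians was 2.5.

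Eif2ak3 (ENSMUSG00000031668, chr6:70844515-70905245, plus strand) encodes PERK, the eIF2α kinase of the endoplasmic reticulum. In microdissected libraries most of its signal sat in a pair of them. Primordial sham held 28.8, 0.214 and 0.129 TPM and primordial NTY 0, 0.351 and 0 TPM. Primary sham held 2.26, 0.11 and 0.908 TPM and primary NTY 15.2, 0.0696 and 0 TPM. Each of the high libraries, primordial sham replicate 1 and primary NTY replicate 1, stood alone in its group. MII sham libraries were nearly equal at 2.28, 2.59 and 2.44 TPM (58, 55 and 48 counts). Their relative SD of 6.43% (n = 3) was the smallest among those of the 10 genes detected in that group. Counting error alone is wider than this at such counts, so the closeness is no sign of an even gene. MII NTY libraries ranged on both sides of the sham libraries, at 1.36, 8.46 and 0.0489 TPM. The fitted difference of the NTY effect between primary and primordial follicles was 9.43 on the log2 scale (SE 4.87, edgeR adjusted p = 0.45), and it ran from 2.46 to 14.51 when single libraries were left out. Of its 6026 exon bases, 485 are overlapped on the opposite strand by Gm43292. The strand setting of the counting is not given in the sources used here, so reads of the overlapping genes cannot be told apart.

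Atf4 (ENSMUSG00000042406, chr15:80255184-80257541, plus strand), the factor at the centre of the integrated stress response, had the highest median of the 10 genes in microdissected libraries, 131 TPM. Primordial sham held 11.3, 138 and 0.659 TPM and primordial NTY 186, 93.9 and 22.3 TPM. Primary sham held 125, 473 and 259 TPM and primary NTY 653, 9.31 and 177 TPM. Replicates of one group thus differed widely, and primary NTY replicate 2 was below every primary sham library. MII libraries held less, with 5.72, 24.1 and 15.2 TPM in sham and 5.34, 11.4 and 3.75 TPM in NTY, a median of 8.54 TPM. The ratio of medians, microdissected over MII, was 15.4, but the ranges overlapped through primordial sham replicates 1 and 3, primordial NTY replicate 3 and primary NTY replicate 2. In MII oocytes the log2 fold change of NTY over sham was -1.07 (SE 0.73, edgeR unadjusted p = 0.177), with overlapping groups.

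Ddit3 (ENSMUSG00000025408, chr10:127290774-127296288, plus strand) encodes CHOP, which ATF4 induces and which promotes cell death under lasting stress. It passed 10 counts in 5 of 6 primary libraries and in 0 of 6 primordial ones. All 6 primordial libraries held 0 counts, which allows up to 0.371 TPM at a limit of 3 counts in the shallowest of them. Primary sham libraries held 24, 261 and 270 counts (2.03, 20.2 and 19.6 TPM). Primary NTY libraries held 0, 11 and 1104 counts (0, 0.898 and 80.4 TPM). All 3 primary sham libraries were therefore above all primordial ones, the lowest of them at least 5.46-fold higher than that limit, whereas 1 primary NTY library was also at 0. Of all genes, 13.8% were higher in primary than in primordial sham without overlap, and Ddit3 was the only 1 of the 9 tested. The share is near that of all genes, so this is a description and no result about the members.

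Ddit3 passed the filter on low counts in follicles only through the primary libraries, so it had to differ between the stages once it was tested. Its p values and calls for primary against primordial follicles are therefore no evidence of a difference, and its fitted fold changes there, against a group at 0, are no bounds. In MII oocytes Ddit3 held 10, 45 and 22 counts in sham and 14, 2 and 0 in NTY, and the groups overlapped (log2 fold change -2.08, SE 1.62, edgeR unadjusted p = 0.233). A second identifier with the same symbol, ENSMUSG00000116429, covers 105 exon bases that all lie within the 1713 of the first. It held 177 counts in primary sham replicate 3, 3 in primary NTY replicate 2, and 0 in the other microdissected libraries. In MII oocytes it held 0, 10 and 6 counts in sham and 2, 2 and 0 in NTY. How the counting shared reads between both identifiers is not given, so the level of Ddit3 is uncertain by this amount, though adding the second identifier left the primordial libraries at 0. Other genes also overlap 81 of the 1713 exon bases on the opposite strand.

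Asns (ENSMUSG00000029752, chr6:7675169-7693254, minus strand) encodes asparagine synthetase, a classical ATF4 target. In primordial follicles it ranged from nothing to one of the highest values of any of the 10 genes, with 0, 415 and 47.8 TPM in sham and 24.2, 82.4 and 0 TPM in NTY. Primary sham was even at 66.8, 51.3 and 50.0 TPM, while primary NTY held 139, 0.0511 and 116 TPM. In MII oocytes it was 26.8, 15.9 and 15.4 TPM in sham and 3.32, 0.105 and 6.68 TPM in NTY. All 3 MII NTY libraries lay below all 3 MII sham libraries, and the lowest sham library was 2.3 times the highest NTY library. The counts behind these values were 310, 153 and 137 in sham and 31, 1 and 62 in NTY, and the ratio of the mean levels, sham over NTY, was 5.75. Of the 7 genes tested in MII oocytes, Asns was the only one whose groups did not overlap, and 5.52% of all genes were lower in NTY without overlap. The log2 fold change was -2.48 (SE 1.12) with an edgeR unadjusted p of 0.0554 and an adjusted p of 0.9998. Under DESeq2, limma, the replicate block and a filter on any count the unadjusted p lay between 0.00698 (limma) and 0.0266 (edgeR with the block), but no adjusted p was under 0.634 (limma). With RLE normalization, as in the main fit, the unadjusted edgeR p was not under 0.05. When single libraries were left out the log2 fold change ran from -3.56 to -1.91. MII NTY libraries also had fewer genes with any count, 12782 to 13608 against 15442 to 18239 in sham, and its part in the Asns values was not tested.

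Trib3 (ENSMUSG00000032715, chr2:152337422-152344032, minus strand) encodes a pseudokinase that is induced by ATF4 and CHOP and dampens their output. It was nearly undetected, with 0 counts in 14 of 18 libraries. Only primordial sham replicate 3 passed 10 counts, with 50 counts or 3.65 TPM. It did not pass the filter in any fit and was not tested.

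Herpud1 (ENSMUSG00000031770, chr8:94386438-94395377, plus strand) encodes a membrane protein of the endoplasmic reticulum that takes part in the degradation of unfolded proteins. Primordial sham held 1.36, 84.6 and 0.0666 TPM and primordial NTY 37.7, 83.8 and 54.8 TPM. Primary sham held 16.4, 78.4 and 0.746 TPM and primary NTY 8.79, 0 and 72.7 TPM. The gene was thus even only in primordial NTY, and its groups overlapped. MII oocytes held 2.19 TPM (18 counts) in sham replicate 2 and 0 in the other 5 libraries, too few for the fit.

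Ppp1r15a (ENSMUSG00000040435, chr7:45522916-45526268, minus strand) encodes GADD34, the stress-induced subunit that brings protein phosphatase to eIF2α. It had the largest ratio between library kinds among the genes of the 10 with a median above 0 in both. Primordial follicles held 0, 0.28 and 1.48 TPM in sham and 0.254, 0.432 and 1.6 TPM in NTY, and primary follicles 0.542, 0.405 and 1.31 TPM in sham and 0, 0.667 and 0.297 TPM in NTY. MII oocytes held 113, 238 and 247 TPM in sham and 184, 141 and 146 TPM in NTY. The lowest MII library was 71.0 times the highest microdissected library, and the ratio of medians was 394. Microdissected libraries held only 0 to 37 counts, with a median of 9 and at least 10 in 5 of 12. Their median of 0.419 TPM was close to a limit of 3 counts, up to 0.216 TPM, so the size of the second ratio is uncertain. In MII oocytes sham and NTY overlapped, with a log2 fold change of -0.26 (SE 0.30, edgeR unadjusted p = 0.41).

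**Figure D2:**
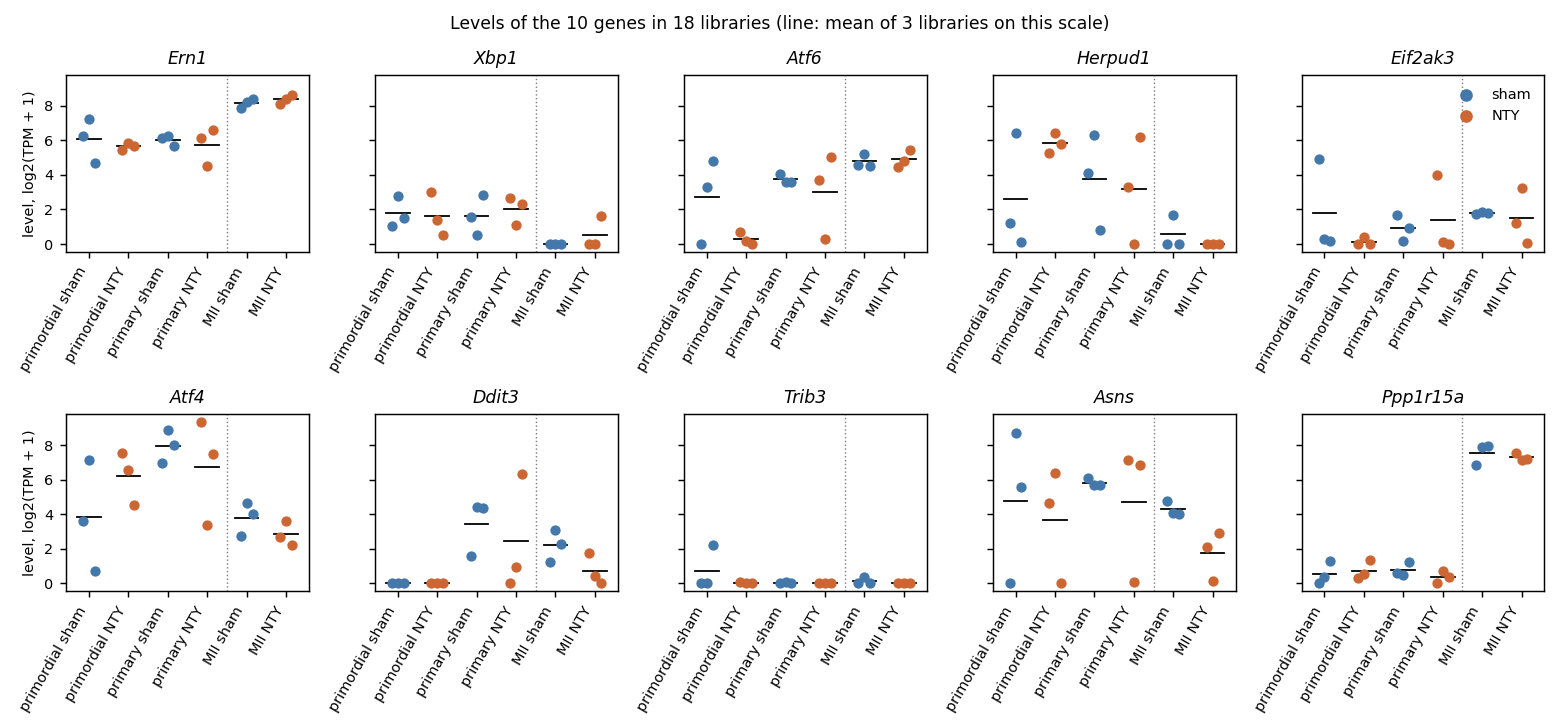
Each panel is 1 gene, with log2(TPM + 1) on the vertical axis and the 6 groups along the horizontal axis. Points are libraries and the short line is the mean of the 3 libraries of a group on this scale, with MII oocytes right of the dotted line. Ern1 and Ppp1r15a are higher in all 6 MII libraries than in all 12 others, Xbp1 and Herpud1 are at 0 in 5 of 6 MII libraries, and Ddit3 is at 0 in all 6 primordial libraries.

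Promoter sequence was read for the 9 of the 10 genes with a RefSeq window (GRCm38.p6, 250 bases before to 50 after the start), with none for Atf6. The elements searched on both strands were the C/EBP-ATF element of ATF4 targets (TGATGNAA), the endoplasmic reticulum stress elements of ATF6 targets (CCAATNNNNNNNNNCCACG and ATTGGNCCACG), a core of the element bound by XBP1 (TGACGTGG) and the cyclic AMP response element (TGACGTCA). The last 2 share their first 6 bases, and none of the matches printed overlaps another. The stretches below are shown because they hold a match before the RefSeq start in genes that are targets of the pathway. RefSeq starts differ from those of the GENCODE coordinates given above, and the Asns match lies inside its GENCODE span. A match in Trib3 lies after its RefSeq start, though before its GENCODE start, and is not printed. Capitals mark the matching letters, read along the gene's strand.
Asns C/EBP-ATF element, chr6:7693214-7693243, minus strand: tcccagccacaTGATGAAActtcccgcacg
Herpud1 C/EBP-ATF element on the other strand, chr8:94386306-94386335, plus strand: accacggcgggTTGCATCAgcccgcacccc
Herpud1 shorter stress element, chr8:94386368-94386397, plus strand: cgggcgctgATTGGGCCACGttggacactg
Ppp1r15a cyclic AMP response element, chr7:45526262-45526291, minus strand: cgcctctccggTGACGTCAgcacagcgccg

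The C/EBP-ATF element was found in 3 of the 9 windows, those of Asns, Herpud1 and Trib3, and in 3.97% of all 32851 RefSeq promoter windows. The shorter stress element was in the window of Herpud1 and in 0.0365% of all windows. The cyclic AMP response element was in that of Ppp1r15a and in 1.79% of all. The longer stress element and the XBP1 core were in none of the 9 windows, against 0.119% and 0.676% of all windows. Asns and Herpud1, which share the C/EBP-ATF element, did not share a pattern in MII oocytes, where Asns passed 10 counts in 5 of 6 libraries and Herpud1 in 1. A match is a description of the letters in these windows, not a bound site.

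By median level the order in MII oocytes was Ern1 (317 TPM), Ppp1r15a (165), Atf6 (24.9), Asns (11), Atf4 (8.54), Eif2ak3 (2.36) and Ddit3 (1.89), with Xbp1, Trib3 and Herpud1 at a median of 0. Ern1 exceeded Ppp1r15a in 6 of 6 libraries although their ranges overlapped, and only Ppp1r15a and Atf6 were neighbours whose ranges did not overlap. In microdissected libraries the order was Atf4 (131 TPM), Ern1 (62.6), Asns (50.7), Herpud1 (27.0), Atf6 (9.98), Xbp1 (1.89), Ppp1r15a (0.419) and Eif2ak3 (0.172), with Ddit3 and Trib3 at a median of 0. The ranges of every pair of neighbours in that order overlapped. Ppp1r15a was thus near the top of one order and near the bottom of the other. Of the 9 of these genes that passed a filter in at least one fit, 2 were higher in MII libraries without overlap (Ern1 and Ppp1r15a), as were 23.6% of all 14540 genes, and 0 were lower without overlap, against 2.94% of all genes.

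The comparison of NTY with sham asks what the treatment label changed at each stage. None of the 10 genes passed an adjusted p under 0.05 by edgeR in any of the 3 stages, and neither did almost any other gene, with 0.0095% of 10522 genes called in primordial follicles, 0.0% in primary follicles and 0.0% of 12209 genes in MII oocytes. The filter on low counts kept 9 of the 10 genes in microdissected libraries and 7 in MII oocytes. At an unadjusted p under 0.05 by edgeR, 0 of the tested members passed at any stage, against 10.9%, 8.15% and 2.29% of all genes in primordial follicles, primary follicles and MII oocytes. DESeq2 had 1 in primordial follicles (Atf6, unadjusted p = 0.0058, adjusted p = 0.0589), 0 in primary follicles and 1 in MII oocytes (Asns), and limma had 0, 0 and 1 (Asns). At an adjusted p, DESeq2 called 0 of them at the 3 stages, although it called 9.2%, 6.01% and 0.24% of the genes it gave an adjusted p. It gave none for Eif2ak3 in any follicle comparison, through its filter on outlying counts. On log2(TPM + 1), limma called 0 of them too, with calls for 0.0107%, 0.0321% and 0.0% of genes. Where nothing says that replicates came from separate animals, these p values measure only the spread between libraries, which may be technical.

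In primordial follicles, 3 of the tested genes had estimates above 0 and 5 below, with a median log2 fold change of -0.31 over these 8 (all genes tested 0.12). Ddit3 was at 0 in both groups and had no estimate. In primary follicles 7 were above 0 and 2 below, with a median of 0.60 (all genes -0.10), whereas limma on log2(TPM + 1) put 2 above and 7 below, with a median of -0.58, so no direction can be read there. In MII oocytes 3 were above and 4 below, with a median of -0.26 (all genes 0.00). In MII oocytes the estimates were above 0 for Ern1, Atf6 and Eif2ak3, at 0.27, 0.22 and 0.31, but Eif2ak3 was at -0.26 with limma and -1.16 with the replicate block, and leaving out a library took Atf6 to -0.25 and Eif2ak3 to -1.76. Atf4, Ddit3, Asns and Ppp1r15a lay below 0. All standard errors in follicles were 1.98 or more, and in MII oocytes they were 0.27 to 1.62.

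**Figure D3:**
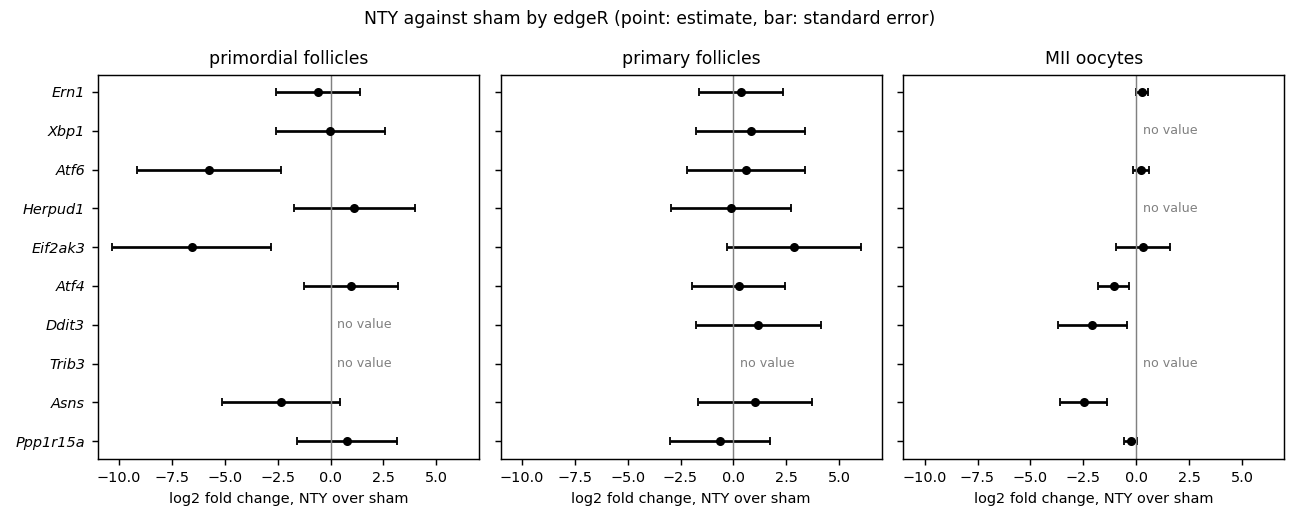
Points are log2 fold changes of NTY over sham from edgeR and bars are standard errors, for each gene (rows) in primordial follicles, primary follicles and MII oocytes (panels). "No value" marks a gene that did not pass the filter or was at 0 in both groups. The bars are wide in follicles, 1.98 or more, and in MII oocytes Asns lies farthest from 0, at -2.48.

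Primary was compared with primordial follicles to ask what differs between resting and growing follicles. No member was called by edgeR in sham (0.0095% of all genes called) or in NTY (0.0% called). At an unadjusted p under 0.05 by edgeR, 1 of 9 passed in each, against 9.28% and 9.97% of all genes, and it was Ddit3 both times, which entered the test only through its primary libraries. DESeq2, which called 6.52% and 8.75% of genes here, called Ddit3 in both, with the same limit, and Atf6 in NTY (log2 fold change 6.28, adjusted p = 0.0381). On log2(TPM + 1), limma called 0 members in both, with 0.0428% and 0.0% of genes called. By edgeR, Atf6 in NTY had a log2 fold change of 6.14 (SE 3.48, adjusted p = 0.576). Atf4 had estimates of 2.41 (SE 2.32) in sham and 1.72 (SE 2.26) in NTY, neither past an unadjusted p under 0.05 by edgeR. With limma the sham difference of Atf4 was 4.14 on the log2(TPM + 1) scale (unadjusted p = 0.0415, adjusted p = 0.661).

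The difference of the NTY effect between primary and primordial follicles was also tested, and no member passed by edgeR (0.0095% of genes called, and 0 members against 11.8% of all genes at an unadjusted p under 0.05). The 5 comparisons among follicles share libraries, so their values are not independent of one another. DESeq2, which called 9.1% of genes for this difference, and limma, which called 0.0107%, called no member either. At an unadjusted p under 0.05, 1 of the 8 members with an estimate passed with DESeq2 and 0 with limma. By edgeR 1 passed with RLE normalization, and 1 with primary NTY replicates 2 and 3 summed.

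Around these 10 genes, 84 other genes of the same pathways were listed in 6 groups. By edgeR 0 of them passed in any comparison. In MII oocytes 68 were tested for NTY against sham, and 2 of them (2.94%, against 2.29% of all genes) had an unadjusted p under 0.05. Ppp1r15b, the constitutive counterpart of Ppp1r15a for dephosphorylating eIF2α, held 9.31, 4.57 and 8.94 TPM in sham and 0.314, 1.96 and 0.948 TPM in NTY. Its groups did not overlap, with a log2 fold change of -2.91 (SE 0.86, edgeR unadjusted p = 0.00826, adjusted p = 0.877). Vcp, the ATPase that pulls unfolded proteins out of the endoplasmic reticulum membrane, held 11.6, 17.7 and 13.1 TPM in sham and 18, 40.5 and 37.8 TPM in NTY. Its groups did not overlap either, in the other direction, with a log2 fold change of 1.23 (SE 0.42, edgeR unadjusted p = 0.0168, adjusted p = 0.9998). Counting every tested gene of the lists, 2 were higher and 3 lower in MII NTY without overlap, against 2.04% and 5.52% of all genes.

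Among chaperones and folding enzymes of the endoplasmic reticulum, Creld2 had the highest median in MII oocytes, 610 TPM against 1.28 TPM in microdissected libraries, followed by Dnajc3, a brake on PERK, at 199 against 2.87 TPM, and neither overlapped between library kinds. Hyou1, a large chaperone, was the reverse, at 3.49 against 100 TPM, and its MII sham libraries (3.76, 7.78 and 6.57 TPM) lay above its NTY libraries (0.971, 3.15 and 3.22 TPM; edgeR unadjusted p = 0.101). Also lower in MII oocytes without overlap, and named after their values were seen, were Hspa5, which encodes the main chaperone BiP (12.5 against 650 TPM), Hsp90b1 (31.8 against 1171 TPM), Pdia3 (18.6 against 2018 TPM) and Pdia4 (28.1 against 156 TPM). Of the 16 chaperones with a level, out of 18 listed, 5 were thus lower and 2 higher without overlap, against 2.94% lower and 23.6% higher of all genes, and the other 9 overlapped. Sil1, an exchange factor of BiP, overlapped between library kinds, at 7.63 against 24.2 TPM.

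Among the other ATF4 and CHOP targets, 5 of 21 were higher in MII oocytes without overlap, a share close to the 23.6% of all genes and so no result about the list, and 0 were lower. Slc3a2, the heavy chain of amino acid transporters, was at 285 TPM in MII oocytes against 6.86 TPM, and Mthfd2, an enzyme of mitochondrial folate metabolism, at 236 against 3.39 TPM. Slc7a11, the cystine transporter, overlapped between library kinds at 25.9 against 4.35 TPM. For NTY against sham in MII oocytes, 0 of the 18 tested in this list had an unadjusted p under 0.05.

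Of the other eIF2α kinases, Eif2ak1, the haem-regulated kinase, was higher in MII oocytes without overlap at 140 against 7.06 TPM, and Eif2ak4, the amino acid sensor GCN2, overlapped at 35.3 against 22.2 TPM. In MII oocytes both were thus above Eif2ak3 by median, at 2.36 TPM. Eif2b1, a subunit of the exchange factor that phosphorylated eIF2α blocks, was at 843 against 109 TPM, Eif2s2, the β subunit of eIF2, at 221 against 67.2 TPM, and Eif2b4, another subunit of the exchange factor, at 18.3 against 40.2 TPM, each with overlap. From the same list, and named after their values were seen, Eif2s3x (10.4 against 497 TPM) and Ppp1ca (74.1 against 862 TPM) were lower without overlap. In the degradation pathway Os9, a lectin, was at 39.3 against 11.5 TPM with overlap, while Ubxn4, which anchors Vcp at the membrane, was higher without overlap at 184 against 32.3 TPM. Vcp itself was lower without overlap, at 17.9 against 341 TPM. Among other sensors, Atf6b, the paralog of Atf6, was at 23.4 against 25.1 TPM, Bfar, a regulator of cell death in the endoplasmic reticulum membrane, at 49.6 against 0.475 TPM and Creb3l2, which like ATF6 is freed by cutting, at 1.63 against 6.23 TPM. In this last list the library kinds overlapped for all 8 genes past the filter. Creb3l2 held 0.065, 0.546 and 1.14 TPM in MII sham and 2.13, 2.53 and 3.52 TPM in MII NTY, without overlap (log2 fold change 2.39, SE 1.14, edgeR unadjusted p = 0.0661). Over the 76 listed genes with a value past the filter, 9 were higher and 8 lower in MII oocytes without overlap, against 23.6% and 2.94% of all genes.

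**Figure D4:**
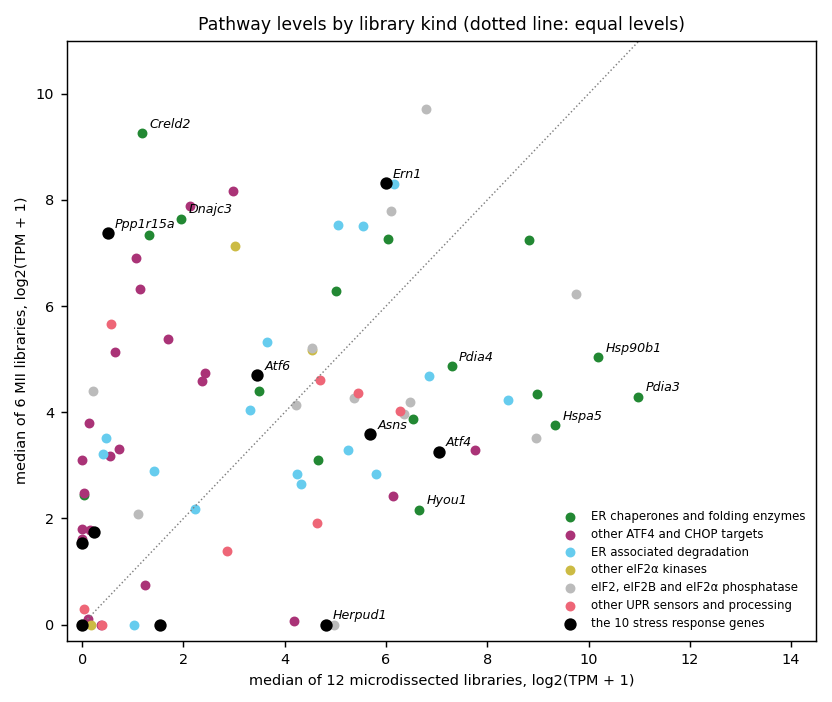
Each point is a gene, with its median log2(TPM + 1) over the 12 microdissected libraries on the horizontal axis and over the 6 MII libraries on the vertical axis. Black points are the 10 stress response genes and colours mark the 6 lists, and the dotted line marks equal levels. Ppp1r15a, Creld2 and Dnajc3 lie far above the line, and Hspa5, Hsp90b1, Pdia3, Hyou1 and Atf4 lie below it.

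The genes whose pattern over the 18 libraries was most like that of Atf4 were sought among 7809 genes with a mean of at least 10 TPM, by the mean absolute difference of standardised log2(TPM + 1). They were Pank3 (0.328), which makes coenzyme A, Nrbp2 (0.363), a pseudokinase, and Cpsf1 (0.377), a subunit of the complex that cuts pre-mRNA for polyadenylation. Of the 10 genes, Herpud1 stood at rank 57 (0.524), Asns at rank 966 (0.738), and Atf6, Ern1 and Ppp1r15a lower, while Xbp1, Eif2ak3, Trib3 and the main identifier of Ddit3 fell below the mean of 10 TPM and were not compared. The libraries differ in kind and depth, which all of these genes share.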

How the data were processed

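RNA was sequenced from 18 libraries, grouped by their labels. Per gene, the authors deposited raw read counts in whole numbers and TPM values that sum to 1000000 in each library. The submitters' notes name Trim Galore 0.4.1, TopHat2, featureCounts and mm10. Annotation, strand setting and treatment of multiply mapped reads are not given in the sources used here, so shared reads could alter overlapping genes. Coordinates and exon lengths came from GENCODE M21 (GRCm38), and the lengths implied by counts and TPM matched them within 1% for 95.3% of 25063 genes.

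Counts were tested in R 4.3.3 with edgeR 4.0.16 (robust quasi-likelihood fit, TMM, filterByExpr by group), with a Benjamini-Hochberg adjusted p under 0.05 over all genes tested. The test gives no standard error. Each SE was derived as the absolute log2 fold change over the square root of the F statistic, and is approximate. One fit held the 12 microdissected libraries and another the 6 MII libraries. Alternatives were RLE normalization, DESeq2 1.42.0, a filter on any count, a replicate block, limma 3.58.1 on log2(TPM + 1), fits of only the groups compared, primary NTY replicates 2 and 3 merged because their library codes are alike, and leaving out each replicate. Scripts were tested on simulated data. A pass was required only at a smaller spread between libraries than these data have, so it does not show which changes could be found here.

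The 10 genes, the pathway lists and the marker lists were chosen with earlier results of these data known. Genes named from a list were the 2 with the highest median TPM in MII oocytes and the 2 with the smallest p for NTY there, and others are said to be chosen later. One gene that this rule names is not reported here. Libraries of a group differed beyond counting noise (smallest chi-square per degree of freedom 34.1), so none was counted as a copy. Total counts of 8652089 to 29205503 per library set the precision, and limits from 3 counts cover counting error only.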

Additional observations from a re-analysis of the deposited data

How the results depend on the processing

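Counts of genes called are given in the order primordial NTY, primary NTY, MII NTY, primary against primordial in sham, the same in NTY, and the difference of the NTY effect. They were 1, 0, 0, 1, 0 and 1 by edgeR with TMM, 2, 0, 0, 1, 0 and 1 with RLE, and 760, 485, 29, 526, 706 and 752 with DESeq2. A filter on any count gave 1, 0, 0, 0, 0 and 11, and limma on log2(TPM + 1) gave 1, 3, 0, 4, 0 and 1. With only the groups compared, 6, 0, 0 and 0 were called in the 4 follicle comparisons, and the sum of primary NTY replicates 2 and 3 gave 3, 0, 1 and 0 there and 0 for the difference. Leaving out single libraries gave 0 to 3 for primordial NTY, 0 to 2 for primary against primordial sham and 0 to 8 for the difference. Members called stayed at 0, except with DESeq2, which called 1 in primary against primordial sham and 2 in NTY.

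Of 671 member values under alternatives, over 50 results, 606 had the direction and call of the main value, 62 had the other direction (29 results) and 3 passed the threshold only there, with DESeq2. The causes were not tested. In primary NTY against sham, limma gave Atf4 -1.23, Ddit3 -1.03, Ern1 -0.26, Atf6 -0.76 and Asns -1.13, and RLE and DESeq2 gave Herpud1 0.02. RLE moved the median of all genes there from -0.10 to 0.19, in primary against primordial sham from 0.29 to 0.00 and in the difference from -0.56 to -0.28. In MII oocytes limma gave Eif2ak3 -0.26. In primary against primordial sham, limma gave Atf6 1.05 and Asns 1.05, RLE and DESeq2 gave Ppp1r15a -0.09 and the summed library -0.01. In primary against primordial NTY, RLE and DESeq2 gave Ern1 -0.15, and for the difference limma gave Asns -0.04.

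With the replicate number as a block, 1, 0, 0, 1, 0 and 1 genes were called. Values of the other sign under the block were Ddit3 -1.09, Atf6 -0.08, Eif2ak3 -2.03 and Herpud1 1.37 in primary NTY, Eif2ak3 -1.16 in MII NTY, and Atf6 0.12 and Eif2ak3 0.79 in primary against primordial sham. The block changed no call. Same-numbered libraries had mean correlations of their deviations between -0.0203 and 0.0261, with single ones from -0.0798 to 0.083. With 3 libraries per group, such values cannot show whether the same number marks the same animal, and the labels do not say.

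Leaving out single libraries gave both signs for these log2 fold changes. In primordial NTY they were Xbp1 -1.56 to 0.98, Ern1 -1.05 to 0.16, Ppp1r15a -1.0 to 2.75 and Asns -3.73 to 0.32. In primary NTY they were Atf4 -1.41 to 1.11, Ddit3 -4.44 to 1.78, Ern1 -0.06 to 0.76, Atf6 -0.59 to 1.21, Eif2ak3 -4.10 to 3.79 and Herpud1 -2.65 to 2.26. In MII NTY they were Atf6 -0.25 to 0.41 and Eif2ak3 -1.76 to 0.88. In primary against primordial sham they were Xbp1 -1.68 to 0.53, Ern1 -1.0 to 0.09, Atf6 -0.84 to 1.27, Eif2ak3 -4.47 to 2.12, Ppp1r15a -0.59 to 2.07, Asns -2.37 to 0.92 and Herpud1 -2.24 to 5.44. In primary against primordial NTY they were Xbp1 -0.04 to 2.00, Ern1 -0.02 to 0.73, Eif2ak3 -1.07 to 10.98 and Ppp1r15a -2.85 to 0.50. For the difference they were Atf4 -3.75 to 0.16, Xbp1 -0.11 to 2.37, Ppp1r15a -3.41 to 0.51 and Herpud1 -6.64 to 1.14. With 8652089 to 9978830 counts, Xbp1 and Herpud1 in MII oocytes could be read only down to the limit of 3 counts.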
